A study of Mus musculus with 2 samples.

Results

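The CCN genes *Ccn1*, *Ccn2*, *Ccn3*, *Ccn4*, and *Ccn5* encode secreted proteins of one family, and 5 of the 19465 genes in the deposited tables are described here. They were matched by their symbols, each of which belonged to 1 gene. The family was selected on measured values of these sections, namely the low *Ccn2* count of the Loaded bone region, so that contrast is given as a description. The question was whether the lower *Ccn2* count was confined to bone or extended into the tissue around it.

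Spatial transcriptomics was performed on 1 section of a Control femur and 1 section of a Loaded femur. Both came from female bone cell reporter (BCR) mice, in which fluorescent proteins label osteoblasts and osteoclasts. Both mice received a mid-diaphyseal osteotomy, stabilized with an external fixator, at 12 weeks of age and were euthanized at 17 weeks of age. From week 3 to week 5 after surgery, the Loaded mouse received cyclic mechanical loading 3 times per week and the Control mouse received sham-loading. Both were euthanized hours after the final loading session, so the levels are of that time point alone. In the Visium assay for fixed tissue, probe pairs bind transcripts in the section and are captured on barcoded spots 100 μm apart, and unique molecular identifiers (UMIs) keep each molecule to a single count. A spot can hold several cells, so fewer cells of a type and less RNA per cell cannot be told apart. With 1 section per group, no test was possible, and no interval below covers the variation between mice. Intervals of levels and ratios cover counting error only, and those of shares of spots treat spots as independent.

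CCN proteins are matricellular: they are secreted into the matrix, bind integrins and other surface receptors and growth factors, and modulate signalling more than they build structure. CCN1 and CCN2, long known as CYR61 and CTGF, are classical targets of the mechanosensitive coactivators YAP and TAZ, which act on DNA through TEAD factors, and CCN2 is also induced by TGF-β. CCN3 (NOV) can restrain osteoblast differentiation, CCN4 (WISP1) is a Wnt-induced protein of osteoblast-lineage cells, and CCN5 (WISP2) lacks the C-terminal domain that the others carry.

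On mm10 (GRCm38), *Ccn1* lies on chromosome 3 from 145646976 to 145649981 on the minus strand, and *Ccn2* on chromosome 10 from 24595442 to 24598683. *Ccn3* and *Ccn4* both lie on chromosome 15, from 54745702 to 54754039 and from 66891320 to 66923201, and *Ccn5* lies on chromosome 2 from 163820861 to 163833146. Of these 5 genes, a promoter sequence was at hand for *Ccn1* alone, and the promoters of the other members were not searched. Its letters include the core motif of TEAD factors, which connect the best-known members of the family to mechanical signals. The 250 bases before the RefSeq start (GRCm38.p6, chr3:145649986-145650235, minus strand) read 5′ to 3′ as follows, with the motif CATTCC in capitals:
*Ccn1*: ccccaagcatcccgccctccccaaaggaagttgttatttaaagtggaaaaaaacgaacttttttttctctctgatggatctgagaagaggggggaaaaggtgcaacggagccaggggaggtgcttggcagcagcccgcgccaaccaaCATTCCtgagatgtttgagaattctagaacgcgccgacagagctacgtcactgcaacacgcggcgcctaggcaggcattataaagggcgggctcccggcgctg
The motif was searched as CATTCC and GGAATG and began 103 bases before the start. It occurred in 14.6% of 27025 RefSeq promoter windows of 300 bases, which hold 250 bases before and 50 after the start, so its presence is a description and not a binding site.

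Spots were divided into 3 areas. Bone was the study's own selection of bone spots between the middle fixator pins, 131 spots in Control and 146 in Loaded. The rim was every other spot centred within 250 μm of a bone spot (253 and 264 spots). The remaining 1514 and 1021 spots held muscle, marrow, and other soft tissue, and also the shaft beyond the middle pins. After 64 Control and 5 Loaded spots below 500 UMIs or 250 genes were left out, the areas held 557259, 1052870, and 7374083 UMIs in Control and 409020, 1015622, and 3484165 in Loaded. All 8 osteoblast and 4 osteocyte marker genes were detected in both bone regions, and the osteoblast list took 2.01% of the UMIs in Control bone and 6.5% in Loaded bone. In the rim it took 1.29% and 2.29%. Single rim spots reached 8.95% in Control and 25.5% in Loaded, against 11.6% and 25.4% in bone, so the rim may hold bone that was not selected. Bone spots also carried soft tissue transcripts: 22 skeletal muscle genes took 16.7% of the UMIs in Control bone and 8.65% in Loaded bone. The shares of this list were 19.5% and 12.3% in the rim, and 32.5% and 20.9% in the remaining spots. The sections shared 557 spot barcodes, which are labels of array positions. Levels below are UMIs summed over an area and divided by the summed scran size factors, in normalized counts per spot. They are compared for 1 gene at a time, since probes for different genes can differ in efficiency.

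*Ccn2*, a matrix protein that promotes growth of cartilage and bone-forming cells and scarring in many tissues, was far lower in Loaded bone than in Control bone. Control bone held 656 *Ccn2* UMIs and Loaded bone 41. The levels were 3.78 normalized counts per spot in Control (exact Poisson 95% interval 3.5 to 4.08) and 0.318 in Loaded (0.228 to 0.431), an 11.9-fold lower level in Loaded. These are the values that selected the family. On the log2 scale the ratio of Loaded over Control was -3.57 (exact conditional binomial 95% interval -4.07 to -3.12), and 0 of the 1716 genes with at least 100 UMIs over both bone regions had a lower one.

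The lower *Ccn2* level was not confined to the bone spots that the study selected. The rim held 870 *Ccn2* UMIs in Control and 163 in Loaded, at levels of 2.97 (2.78 to 3.18) and 0.514 (0.438 to 0.599), a log2 ratio of -2.53 (-2.78 to -2.29). The remaining spots held 1203 and 374 UMIs, at levels of 0.804 (0.76 to 0.851) and 0.406 (0.366 to 0.449), a log2 ratio of -0.99 (-1.16 to -0.82). In these spots 410 of 9008 genes with at least 100 UMIs had a lower ratio than *Ccn2*. *Ccn2* was thus 11.9-fold lower in bone, 5.78-fold lower in the rim, and 1.98-fold lower elsewhere.

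The *Ccn2* log2 ratio in the rim was lower than in the remaining spots by a difference of -1.55 (approximate 95% interval -1.84 to -1.25). The ratio in bone lay below that in the rim by a difference of -1.04 (-1.56 to -0.53) and below that in the remaining spots by a difference of -2.59 (-3.07 to -2.10). The bone ratio selected the family, which favours a large difference in bone, so the last 2 values are a description. The rim borders those bone spots and may hold bone that was not selected, so the first value is no independent support. Within the Control section, *Ccn2* was 4.7-fold higher in bone than in the remaining spots, on the log2 scale 2.23 (2.09 to 2.37). Within the Loaded section the same ratio was 0.782-fold, and its log2 interval of -0.86 to 0.11 included 0. Loaded bone stood below its own rim, at -0.69 (-1.23 to -0.19), and the Loaded rim above the remaining spots, at 0.34 (0.07 to 0.61). In Control, bone was instead above its rim, at 0.35 (0.20 to 0.49).

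**Figure D1:**
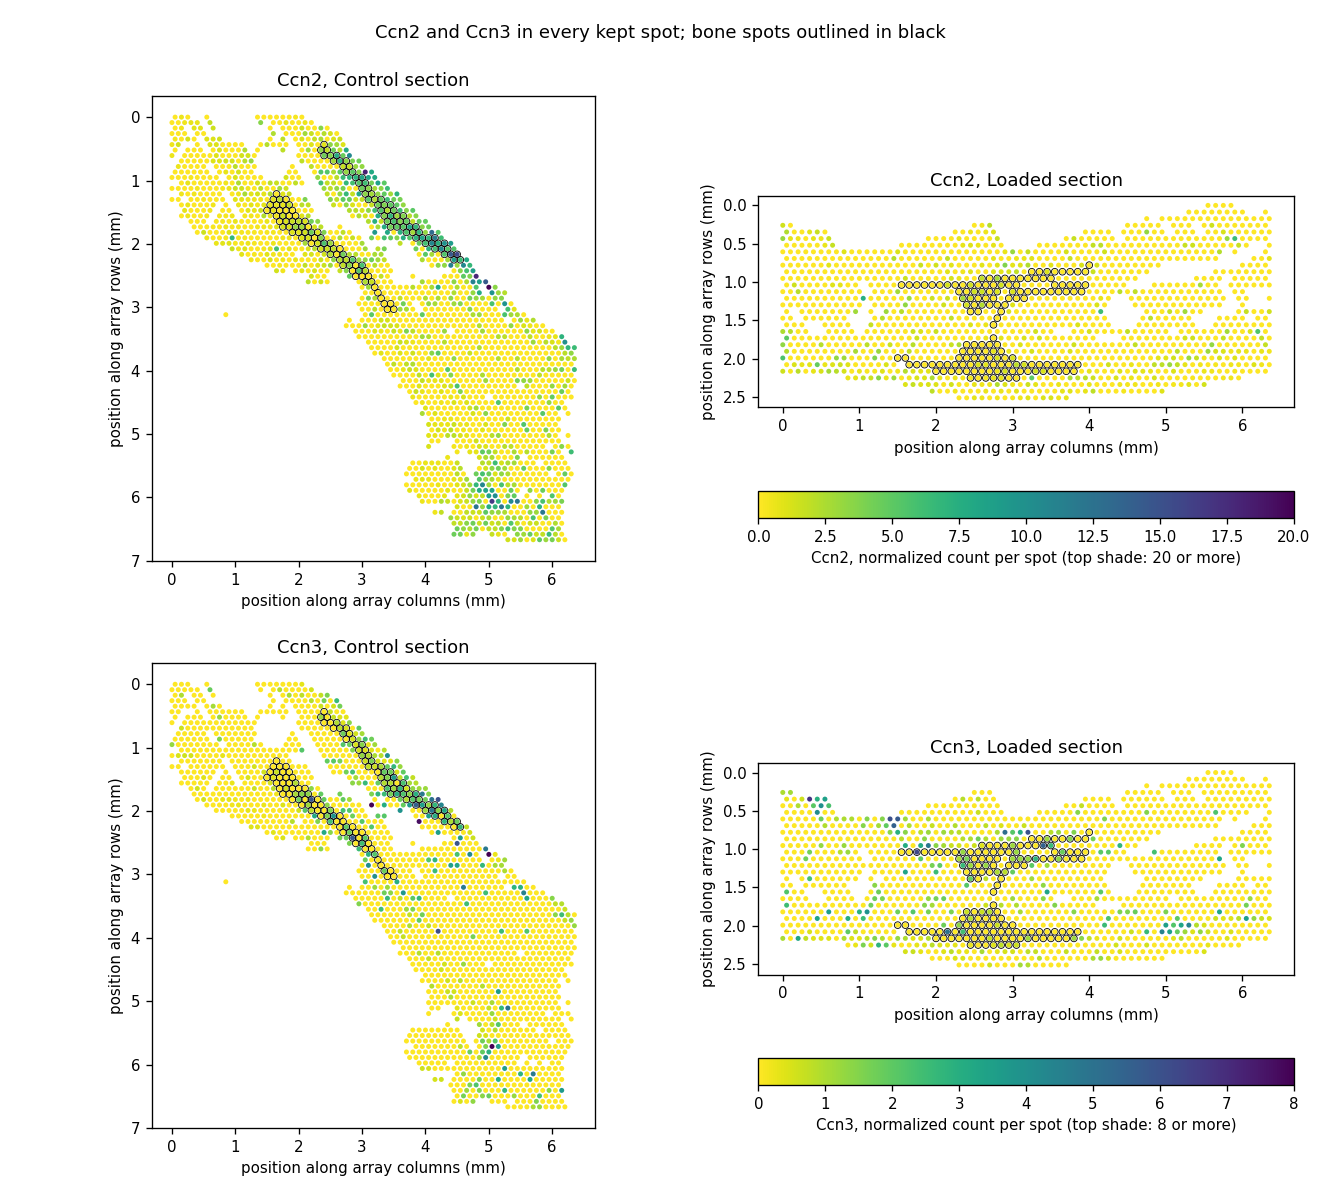
Maps of *Ccn2* (top) and *Ccn3* (bottom) in every spot kept of the Control (left) and Loaded (right) sections, with positions in mm and shade giving the normalized count of the spot; black circles are bone spots. In Control, dark *Ccn2* spots lie along one of the bone strips and the rim beside it and in a patch at the far end of the section, and in Loaded few spots are dark.

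Pooled over both sides of the bone, *Ccn2* in Control was graded with the distance from it. The level was 3.46 in spots up to 150 μm from a bone spot, 2.4 from 150 to 250 μm, and 0.802 from 250 to 500 μm. In Loaded the levels at these distances were 0.552, 0.476, and 0.434, and in Loaded bone itself 0.318. The log2 ratios were -2.65 (-2.99 to -2.32), -2.33 (-2.72 to -1.97), and -0.89 (-1.22 to -0.56) in this order. In the pooled spots the step thus came at the outer edge of the rim, which did not hold for every part of the section (below). From 500 to 1000 μm the ratio was -0.82 (-1.20 to -0.45), and beyond 1000 μm it was -1.13 (-1.38 to -0.89). The last value included 270 Control spots more than 3000 μm from bone, where *Ccn2* stood at 2.11 (1.88 to 2.36), whereas no Loaded spot lay beyond 2506 μm. In those Control spots 8 cartilage marker genes took 0.819% of the UMIs, against 0.0679% between 1000 and 3000 μm. The osteoblast list took 2.64% there against 0.68%, and a list of tendon and fibrous tissue genes 0.391% against 0.0979%. The muscle list took 20.3% against 34.2%. With these spots left out, an alternative chosen after the values were seen, the ratio over the remaining spots was -0.71 (-0.89 to -0.54).

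**Figure D2:**
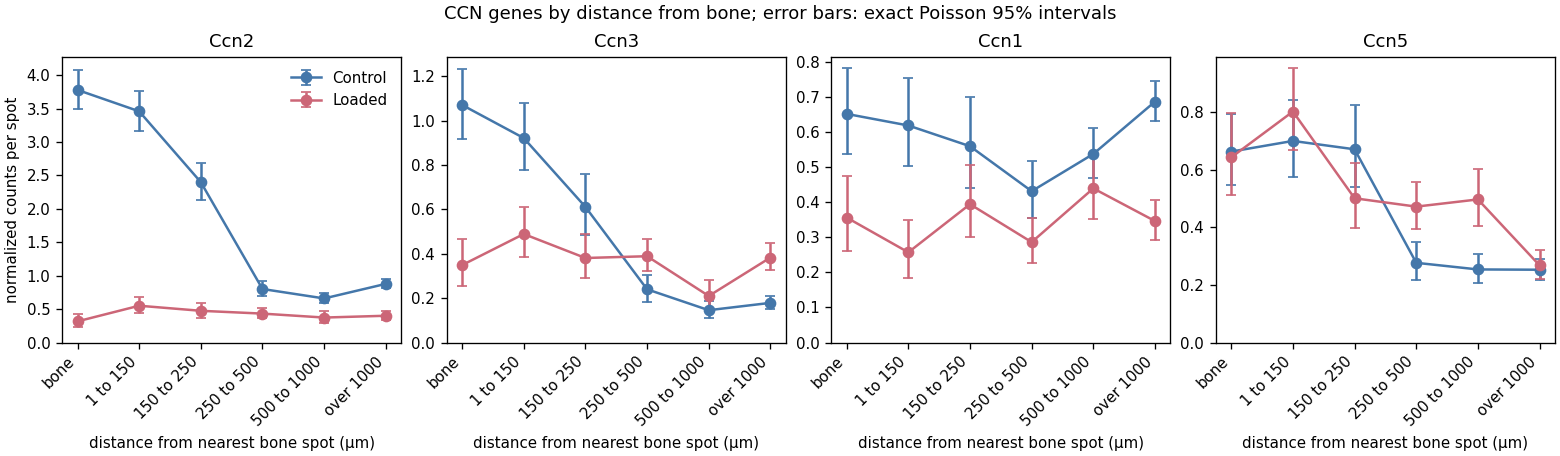
Levels of *Ccn2*, *Ccn3*, *Ccn1*, and *Ccn5* in normalized counts per spot (vertical axis) by distance from the nearest bone spot in μm (horizontal axis), in the Control and Loaded sections; error bars are exact Poisson 95% intervals. Control *Ccn2* drops from 2.4 at 150 to 250 μm to 0.802 at 250 to 500 μm, while Loaded *Ccn2* stays between 0.318 and 0.552.

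Within the sections, *Ccn2* also varied between the sides of the bone. Bone and rim were each divided into 4 blocks, by the side of the shaft (thick or thin, after the amount of tissue beyond it) and the end along the shaft (left or right, arbitrary between sections). In Control bone the thin side held 579 UMIs at a level of 5.62 and the thick side 77 UMIs at 1.09. All 62 Control bone spots of the thin side had at least 1 *Ccn2* UMI. The Loaded sides stood at 0.263 (thin) and 0.386 (thick). In the rim the Control sides stood at 4.53 (thin) and 0.733 (thick) and the Loaded sides at 0.531 and 0.487. Both Loaded sides were thus below both Control sides. The muscle list moved with the sides, taking 6.52% of the UMIs on the thin and 27.3% on the thick side of Control bone, against 6.44% and 11.2% in Loaded bone, and its part in the result was not tested. Thin and thick name the tissue beyond the shaft and do not match anatomical sides between the mice, so a ratio by side need not compare like places. As a description, the log2 ratios in bone were -4.42 (-5.16 to -3.76) on the thin and -1.50 (-2.25 to -0.80) on the thick side. In the rim they were -3.09 (-3.40 to -2.79) and -0.59 (-1.08 to -0.10).

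The 4 Control bone blocks ranged from 1.02 to 5.98 and the 4 Loaded blocks from 0.262 to 0.45, with no overlap. In the rim the ranges were 0.646 to 4.69 and 0.302 to 0.625, also without overlap. The closest rim blocks, at 0.646 (0.494 to 0.83) in Control and 0.625 (0.496 to 0.777) in Loaded, had intervals that overlapped widely. Those of the closest bone blocks, 0.781 to 1.31 in Control and 0.146 to 1.05 in Loaded, overlapped too. Of the 5 members, *Ccn2* was the 1 with every Loaded block below every Control block in bone, as were 1.85% of 10003 genes with at least 10 UMIs. The bone blocks divide the counts that selected the family, which favours such a separation, so it is a description. *Ccn2* was likewise the 1 in the rim, against 1.56% of 11704 genes. The rim borders the bone spots that selected the family and may hold bone, so this too is a description. No member had every Loaded bone block above every Control block, a pattern found in 3.6% of genes. In the remaining spots the *Ccn2* ranges of 0.365 to 5.41 in Control and 0.246 to 1.06 in Loaded overlapped. From rim to remaining spots, Control *Ccn2* fell in the left blocks, from 4.29 to 0.698 (thin) and from 0.646 to 0.365 (thick). It did not fall in the right blocks, at 4.69 and 5.41 (thin, 15 remaining spots) and 1.05 and 1.07 (thick). The thin side held 131 of the 253 Control rim spots but 170 of the 1514 remaining spots, so the distance bins mix the sides unequally.

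**Figure D3:**
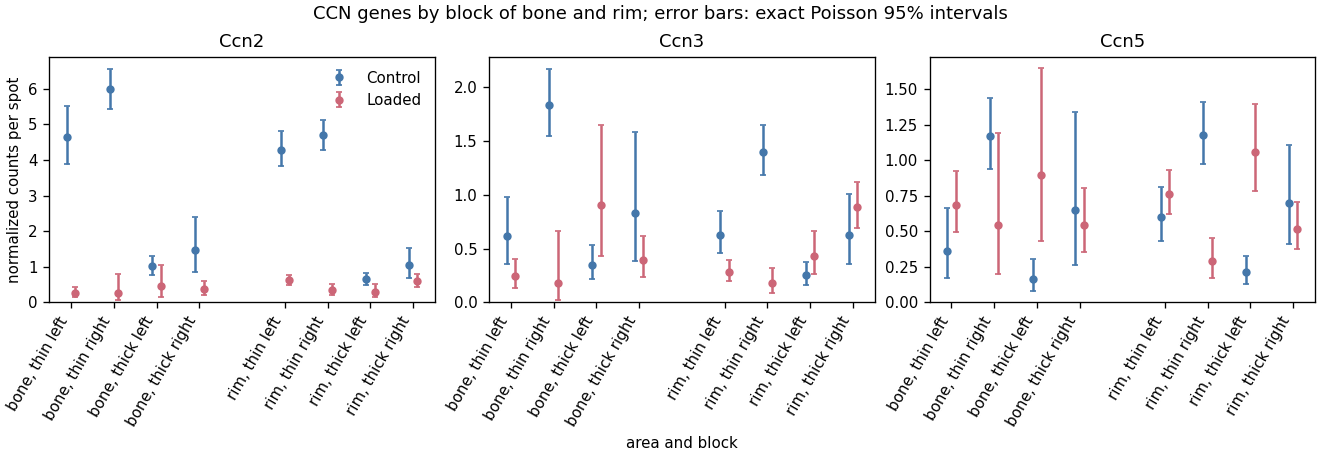
Levels of *Ccn2*, *Ccn3*, and *Ccn5* in normalized counts per spot (vertical axis) in the 4 blocks of bone and of the rim (horizontal axis), in the Control and Loaded sections; error bars are exact Poisson 95% intervals. Control *Ccn2* is highest in the thin-side blocks, at 4.65 and 5.98 in bone, and the blocks of *Ccn3* and *Ccn5* overlap between the sections.

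Spots between the bone strips and spots outside them both showed the *Ccn2* difference. Spots between the strips had bone spots on both sides at the same position along the shaft, and their tissue was not identified from images. In rim spots between the bone strips the level was 1.9 in Control and 0.221 in Loaded, a log2 ratio of -3.10 (-3.85 to -2.42). The muscle list took 11.1% of the UMIs of these spots in Control and 5.1% in Loaded, and its part in the result was not tested. In the outer rim it was 3.24 and 0.639, a ratio of -2.34 (-2.61 to -2.08). In remaining spots between the strips, where the muscle list took 5.54% and 5.55%, the level was 1.86 and 0.179 (66 and 9 UMIs). The ratio there was -3.38 (-4.57 to -2.37), close to the value for bone.

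Spots were also classed by the tissue whose marker genes they carried, since the sections differed in muscle content. In the rim, muscle-rich spots (muscle list at least 10% of UMIs) had *Ccn2* levels of 1.08 in Control and 0.569 in Loaded, a log2 ratio of -0.93 (-1.36 to -0.51). With a limit of 20% on the muscle list that ratio was 0.02 (-0.69 to 0.70), so no difference was detectable in the rim spots richest in muscle, whereas in the remaining spots this limit gave -1.17 (-1.55 to -0.81). Marrow-rich rim spots (blood cell lists at least 5%) stood at 1.97 and 0.202, a ratio of -3.28 (-4.08 to -2.55). Rim spots of neither class stood at 5.44 and 0.745, a ratio of -2.87 (-3.24 to -2.52), and held 642 of the 870 Control rim UMIs. In the remaining spots the ratios were -0.74 (-0.97 to -0.52) in muscle-rich, -2.06 (-2.61 to -1.53) in marrow-rich, and -1.34 (-1.65 to -1.03) in other spots. Bone spots rich in muscle stood at 1.19 and 0.298, a 4-fold lower level in Loaded, and bone spots of neither class at 5.89 and 0.387, 15.2-fold lower. With the limit of 10%, the smallest *Ccn2* difference of each area was that of muscle-rich spots.

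Markers of other tissues differed between the sections in both directions in bone and rim. A list of 11 tendon and fibrous tissue genes took 0.458% of the UMIs in Control bone and 0.253% in Loaded bone, and 0.411% and 0.325% in the rim. A list of 5 Schwann cell genes took 0.0572% and 0.0215% in bone, and 0.0517% and 0.0197% in the rim. The 8 cartilage marker genes took 0.13% and 0.067% in bone, and 0.0667% and 0.0638% in the rim. Granulocyte genes were higher in Loaded, at 0.111% and 0.443% in bone and 0.136% and 0.534% in the rim. So were the lists of erythroid, macrophage, and adipocyte genes in both areas. In the remaining spots the fibrous and Schwann cell lists were higher in Loaded, at 0.125% and 0.201% and at 0.0101% and 0.019%. Per 1000 UMIs of the fibrous list, bone held 257 *Ccn2* UMIs in Control and 39.6 in Loaded, 6.49-fold fewer, and the rim held 201 and 49.4, 4.06-fold fewer. On this scale, an alternative chosen after the values were seen, the differences in bone and rim were smaller than with size factors. The part of the tissue composition in the result was not tested.

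At equal depth the shares of spots with a *Ccn2* UMI were also lower in Loaded in all 3 areas. After the spots with at least 1000 UMIs were thinned to that number, 51.1% of Control bone spots held one (exact binomial 95% interval 42.3 to 60) and 6.87% of Loaded bone spots (3.19 to 12.6). The binomial intervals treat spots as independent, which neighbouring spots are not, and do not cover the variation between mice. Shallower spots were left out, 0 of the Control and 15 of the Loaded bone spots, 4 and 8 of the rim, and 252 and 53 of the remaining spots. In the rim the shares were 40.2% and 8.59%, and in the remaining spots 19.7% and 8.26%. With all spots kept and thinned to 500 UMIs, the shares were 27.5% and 4.79% in bone and 22.5% and 6.06% in the rim. In the remaining spots they were 11.6% and 3.23%, in proportion a contrast close to that of the rim. Without thinning the bone shares were 80.9% and 19.9%. A single spot reached 35 *Ccn2* UMIs in Control bone and 5 in Loaded bone.

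*Ccn1*, an immediate early matricellular protein that binds integrins and promotes angiogenesis, was lower in Loaded in all 3 areas on the scale of size factors. Bone held 113 UMIs in Control and 46 in Loaded, at levels of 0.651 (0.537 to 0.783) and 0.356 (0.261 to 0.475). The log2 ratios were -0.87 (-1.40 to -0.36) in bone, -0.86 (-1.23 to -0.50) in the rim, and -0.79 (-0.97 to -0.60) in the remaining spots. The difference between bone and remaining spots was -0.08 (-0.61 to 0.44), so an area difference as large as that of *Ccn2* lay outside the interval on this scale. In Control, *Ccn1* in bone was 1.09-fold the level of the remaining spots (log2 interval -0.18 to 0.40), and the bone blocks of the sections overlapped. Without the right block of the thin side of Control the bone ratio was -0.39 (-1.01 to 0.23). In muscle-rich spots the ratio was -0.30 (-1.19 to 0.55) in bone and -0.16 (-0.70 to 0.37) in the rim. Spots of neither class gave -1.21 (-1.97 to -0.50) and -1.40 (-2.08 to -0.76). In remaining spots alongside the bone regions, an alternative chosen after the values were seen, the ratio was -0.33 (-0.71 to 0.06). Per 1000 fibrous UMIs, *Ccn1* was 44.2 in Control bone and 44.4 in Loaded bone, so its lower level in bone was not seen on that scale. There the log2 ratios were 0.01 (-0.52 to 0.51) in bone, -0.35 (-0.72 to 0.01) in the rim, and -1.09 (-1.28 to -0.90) in the remaining spots, so the likeness of the areas was lost.

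*Ccn3*, which can oppose CCN2 and restrain osteoblast differentiation, was lower in Loaded bone but higher in the remaining spots. Bone held 185 and 45 UMIs at levels of 1.07 (0.918 to 1.23) and 0.349 (0.254 to 0.466), a log2 ratio of -1.61 (-2.12 to -1.14). In the rim the ratio was -0.84 (-1.16 to -0.53), from 228 and 138 UMIs. In the remaining spots, with 270 and 319 UMIs, it was 0.94 (0.70 to 1.18). Over pooled spots the direction thus turned with the area, and bone differed from the remaining spots by -2.55 (-3.08 to -2.03). It also varied inside the areas. In muscle-rich spots the ratio was 0.15 (-0.69 to 0.98) in bone and 0.58 (0.07 to 1.09) in the rim. In spots of neither class it was -2.58 (-3.40 to -1.85) and -1.63 (-2.17 to -1.12). The thick side of the rim stood at 1.11 (0.56 to 1.69) and the thin side at -2.12 (-2.61 to -1.66). Control *Ccn3*, like Control *Ccn2*, was concentrated on bone, 5.9-fold over the remaining spots, and Loaded *Ccn3* was not (1.01-fold).

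By class, the higher *Ccn3* of the remaining spots was seen in muscle-rich spots, but less so in those richest in muscle. In the muscle-rich class the level was 0.12 in Control and 0.351 in Loaded, a log2 ratio of 1.55 (1.24 to 1.87). The ratio was -0.43 (-1.12 to 0.25) in marrow-rich and -0.10 (-0.58 to 0.38) in other spots. With the muscle limit at 20% the muscle-rich ratio fell to 0.54 (-0.00 to 1.05), an interval that no longer excluded equal levels. Whether *Ccn3* of muscle tissue itself differed was not tested. In spots of all kinds with a muscle share below 5%, the ratio over the remaining spots was -1.55 (-2.66 to -0.59), the opposite direction. In remaining spots alongside the bone regions, an alternative chosen after the values were seen, it was 0.17 (-0.27 to 0.62). With equal weight per spot the ratio over the remaining spots was 0.31, and no interval was computed for that mean of spots. With 1 block left out it ran from 0.43 to 1.60. The lowest, 0.43 (0.19 to 0.68), came without the left block of the thick side of Control. The highest, with a lower bound of 1.25, came without the right block of that side. Without the left block of the thick side of Loaded it was 0.51 (0.23 to 0.80). The *Ccn3* UMIs were clustered, and 28 of the 1021 remaining Loaded spots held at least 50% of the 319. In bone, most Control *Ccn3* lay in the right block of the thin side, with 138 of 185 UMIs. Without that block the ratio was -0.46 (-1.08 to 0.17) in bone and -0.02 in the rim, so the lower *Ccn3* of Loaded bone and rim rested on 1 block. Against the fibrous list the bone ratio was -0.74 (-1.24 to -0.26), short of 2-fold. The thin and thick sides stood at 1.51 and 0.425 in Control bone and at 0.236 and 0.491 in Loaded bone, so the sides overlapped between the sections.

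*Ccn4*, a Wnt-induced gene of the osteoblast lineage, was rare, and was higher in Loaded bone. It had 3 UMIs in 2 spots of Control bone and 25 UMIs in 19 spots of Loaded bone, at levels of 0.0173 (0.00356 to 0.0505) and 0.194 (0.125 to 0.286). The log2 ratio of 3.49 had an interval of 1.77 to 5.86, wide because of the 3 Control UMIs. Within the Loaded section *Ccn4* was 8.11-fold higher in bone than in the remaining spots (log2 3.02, 2.13 to 3.91). In the rim (8 and 15 UMIs) the ratio of Loaded over Control was 0.79 (-0.54 to 2.24) and in the remaining spots (38 and 22 UMIs) -0.09 (-0.92 to 0.71), so no difference was detectable outside bone at this depth. With equal weight per spot the ratio in the remaining spots was -0.90, and no interval was computed for that mean of spots. The left block of the thick side of Loaded bone held 0 *Ccn4* UMIs in 18 spots, a count that allows up to 3, and the blocks of the sections therefore overlapped. The osteoblast list moved with *Ccn4*, taking 2.01% of UMIs in Control bone and 6.5% in Loaded bone, and its part in the result was not tested.

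*Ccn5*, a short member of the family found in fibroblasts and osteoblasts, had similar total levels in the bone and rim of both sections, but its ratio depended on the spots and the divisor used. Bone held 115 UMIs in Control and 83 in Loaded, at levels of 0.663 and 0.643, a log2 ratio of -0.04 (-0.47 to 0.38). The rim ratio was -0.07 (-0.36 to 0.21), from 201 and 207 UMIs. The remaining spots had levels of 0.257 and 0.383, a ratio of 0.57 (0.36 to 0.79), and bone differed from them by -0.62 (-1.08 to -0.16). Among spots in which the muscle list took under 5%, *Ccn5* was lower in Loaded, at -1.07 (-1.81 to -0.35) in bone and -1.04 (-1.57 to -0.52) in the rim. Against the fibrous list it was higher, at 0.83 (0.41 to 1.25) and 0.44 (0.15 to 0.72). The even totals held unlike sides within Control, where the thin and thick sides of bone stood at 0.952 and 0.241, whereas those of Loaded bone stood at 0.666 and 0.614. Without the right block of the thin side of Control the ratio was 1.23 in bone and 0.63 in the rim. In the remaining spots it was 0.03 and 0.21 without the left block of the thick side of Control or of Loaded. *Ccn6*, the sixth gene of the family and not a member of this group of 5, had at most 5 UMIs in any area of either section and was given no ratio.

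**Figure D4:**
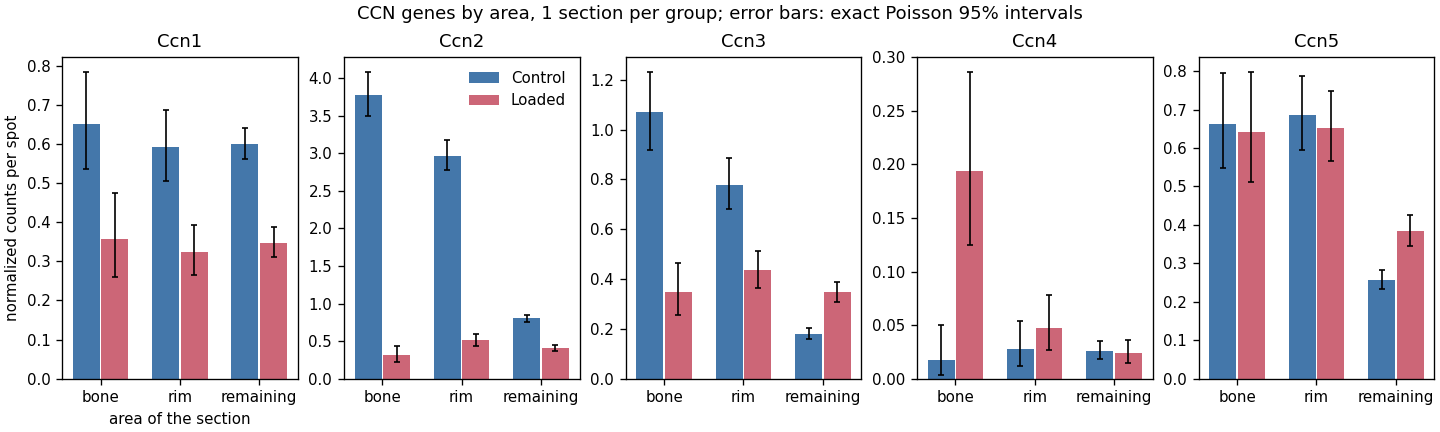
Levels of the 5 CCN genes in normalized counts per spot (vertical axes, each from 0) in bone, rim, and remaining spots (horizontal axes) of the Control and Loaded sections; error bars are exact Poisson 95% intervals. *Ccn2* and *Ccn3* slope down from bone outwards in Control, Loaded *Ccn2* stands at 0.318, 0.514, and 0.406, and *Ccn4* is highest in Loaded bone, at 0.194.

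Counted over the family, 2 of 5 members (*Ccn2* and *Ccn3*) were at least 2-fold lower in Loaded bone, as were 8.11% of the 10003 genes with at least 10 UMIs. Only *Ccn2* was so without the right block of the thin side of Control or against the fibrous list. The member *Ccn4* was at least 2-fold higher, as were 13.2% of these genes. In the rim, 1 member (*Ccn2*) was at least 2-fold lower and 0 were at least 2-fold higher, against 6.58% and 7.42% of 11704 genes. In the remaining spots 0 members passed 2-fold in either direction, against 5.6% lower and 6.78% higher among 15485 genes, with *Ccn2* just short of it at -0.99 and *Ccn3* at 0.94. Other scalings moved these both ways. *Ccn2* went to -1.05 with TMM factors and -1.29 against the fibrous list, but to -0.60 with library totals. With totals that left out the muscle list or the 20 most abundant genes it was -0.83 and -0.84. *Ccn3* went to 1.32 with library totals and 1.09 with either of the other totals. It was 0.88 with TMM factors and 0.64 against the fibrous list. The bone contrast selected the family, so these counts are a description. With size factors the median log2 ratio of all genes was 0.12 in bone, 0.00 in the rim, and 0.04 in the remaining spots. With library totals it was 0.42 in the remaining spots.

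**Figure D5:**
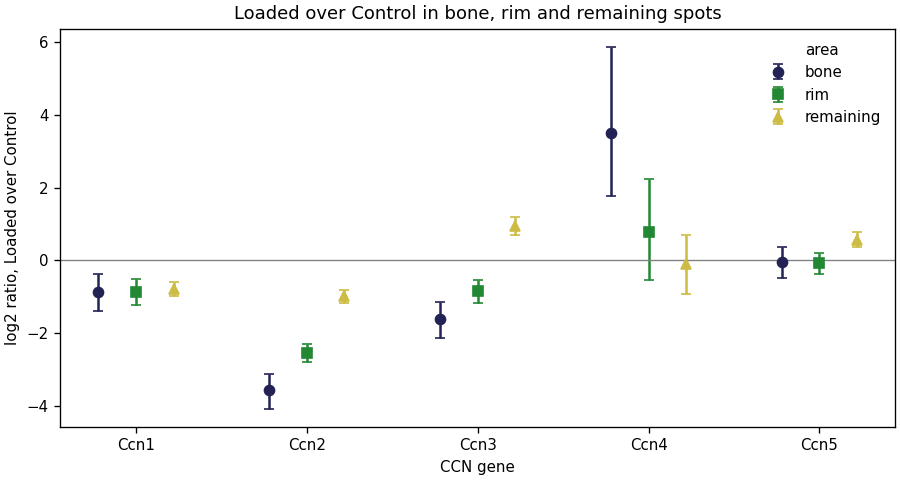
Log2 ratio of Loaded over Control (vertical axis) for the 5 CCN genes (horizontal axis) in bone, rim, and remaining spots; error bars are exact conditional binomial 95% intervals and the line marks equal levels. *Ccn1* lies at -0.87, -0.86, and -0.79, *Ccn2* runs from -3.57 in bone to -0.99 in the remaining spots, and *Ccn3* changes direction.

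Most other genes of the pathway differed less between the sections than *Ccn2* did. In bone this was largely set by the selection of *Ccn2* for its low count there, so it is a description. Of 20 YAP and TAZ targets other than CCN genes, 17 had at least 10 UMIs over both bone regions. In bone 3 of them were at least 2-fold lower and 0 higher, against 8.11% and 13.2% of all genes, with a median log2 ratio of -0.30 beside 0.12 over all genes. These were *Igfbp3* and, named after their values were seen, *Dock5* (16 and 1 UMIs) at -3.57 (-8.96 to -0.89) and *Nt5e* (11 and 4 UMIs) at -1.03 (-3.14 to 0.72). The lowest with at least 30 UMIs were *Igfbp3*, a binding protein of insulin-like growth factors, at -1.06 (-1.70 to -0.46), *Gadd45a*, a stress response gene, at -0.93 (-1.59 to -0.31), and *Ankrd1*, a muscle ankyrin repeat protein, at -0.88 (-1.78 to -0.03). The highest were *Asap1* at 0.64 (-0.09 to 1.38), *Tgfb2* at 0.37 (-0.50 to 1.24), and *Myof* at 0.18 (-0.48 to 0.84). In the rim 4 of 19 were at least 2-fold lower (*Ptpn14*, *Igfbp3*, *Fjx1*, and *Nt5e*, from -1.21 to -1.12) and 0 higher, against 6.58% and 7.42% of all genes, with a median of -0.35. *Fjx1* and *Nt5e* had 10 and 5 UMIs each, with intervals of -3.01 to 0.57 that included 0. Among the remaining spots *F3*, the initiator of blood clotting, was higher, at 1.81 (1.32 to 2.31), and *Foxf2*, with 11 and 3 UMIs, stood at -1.17 (-3.66 to 0.75), with a median of 0.08. Apart from *Igfbp3*, the genes of the rim and remaining spots were named after their values were seen.

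Of 19 genes of the Hippo pathway, which controls YAP and TAZ, 2 had a ratio at least 2-fold lower in bone and 1 a higher one, against 8.11% and 13.2% of all genes, with a median of -0.06. *Amot* stood at -1.89 (-4.32 to -0.07), *Vgll3* at -1.31 (-2.92 to 0.06), and *Tead2* at 1.23 (-0.74 to 3.45), and the last 2 intervals included 0. These 3 had at most 20 UMIs in either bone region and were named after their values were seen. *Yap1* itself stood at 0.17 (-0.64 to 0.97) and *Wwtr1*, which encodes TAZ, at -0.06 (-0.51 to 0.39). Both were likewise named afterwards. By the rule for named genes, *Tead1* at -0.61, *Tead3* at -0.57, and *Sav1* at -0.31 were the lowest and *Vgll4* and *Nf2*, both at 0.31, and *Stk3* at 0.29 the highest, and all 6 intervals included 0. The 6 genes had 20 to 43 UMIs each in Control bone.

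Of 17 genes of the TGF-β pathway, 3 were at least 2-fold lower in bone and 0 higher, against 8.11% and 13.2% of all genes, with a median of -0.14. These 3 were the ligand *Tgfb3* at -1.21 (-1.65 to -0.78), the transcriptional repressor *Skil* at -1.10 (-1.96 to -0.31), and the coreceptor *Tgfbr3* at -1.02 (-1.65 to -0.42). The ligand *Tgfb1* at 0.92 (0.52 to 1.31) and the signal transducer *Smad3* at 0.69 (0.12 to 1.27) were higher in Loaded bone. *Tgfb3* was lower in the rim too, at -0.98 (-1.26 to -0.71), and near equal in the remaining spots, at -0.06 (-0.22 to 0.11).

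Of 14 receptors and partners of CCN proteins, 1 was at least 2-fold lower in bone and 1 higher, a share near the 8.11% and 13.2% of all genes, with a median of 0.23. The lower one was *Lrp1*, an endocytic receptor that binds CCN2, with 47 UMIs in Control bone and 6 in Loaded bone, a log2 ratio of -2.54 (-4.06 to -1.31). Its ratio was -1.63 (-2.44 to -0.87) in the rim and -0.86 (-1.40 to -0.35) in the remaining spots, the same order of areas as *Ccn2*. The higher one was the growth factor receptor *Fgfr2* at 1.33 (0.41 to 2.31), which was also higher in the rim, at 2.09 (0.97 to 3.41), and lower in the remaining spots, at -1.10 (-1.77 to -0.47). In bone *Lrp6*, a Wnt coreceptor, stood at -0.73 and the integrin subunit *Itgb5* at -0.61, and the integrin subunits *Itgb2* and *Itgb3* stood at 0.59 and 0.58. In the rim 1 of the 14 was at least 2-fold lower and 3 higher, against 6.58% and 7.42% of all genes, with a median of -0.12. The 3 were *Fgfr2*, *Itgb2* at 1.25 (0.88 to 1.64), and *Itgam* at 1.51 (0.50 to 2.64). *Itgam* was named after its value was seen.

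The genes with the pattern most like *Ccn2* were sought among 7956 genes with at least 200 UMIs, by Pearson's r of log2(level + 0.1) over 24 units of section, area, and block. These units share 2 sections, so r describes them and carries no test. The closest were *Nbl1*, a secreted BMP antagonist (r = 0.93), *Igfbp6*, a binding protein of insulin-like growth factors (0.91), *Lrp1* (0.89), *Ndrg1* (0.87), and *Prelp*, a leucine-rich matrix protein (0.87). *Nbl1* had log2 ratios of -2.03 in bone, -2.06 in the rim, and -0.03 in the remaining spots. Among the family, r with *Ccn2* was 0.72 for *Ccn3*, 0.59 for *Ccn1*, 0.43 for *Ccn5*, and -0.20 for *Ccn4*. The limit of 200 UMIs was not applied to the members. *Ccn4* lay under it, with levels below the added 0.1 in most units, so its r says little.

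The genes most like *Ccn3* were *Itgbl1* (0.88), *Mgp*, the matrix Gla protein that inhibits mineralization (0.86), *Loxl1*, *Clec11a*, and *Bgn*, the last 3 at 0.85. *Mgp* had log2 ratios of -1.56 in bone, -0.98 in the rim, and 1.02 in the remaining spots, a change of direction between areas like that of *Ccn3*. Those most like *Ccn1* were less close, led by the amino acid transporter *Slc7a2* (0.78), the protease *Prss23* (0.76), and the glucocorticoid-induced gene *Tsc22d3* (0.75), then *Angptl2* (0.73) and *Phlda3* (0.72).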

How the data were processed

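The authors sequenced the probe libraries and counted them with SpaceRanger (version 2.0.0 per the file headers, mm10 per the submitters' processing notes), and the deposited values are raw UMI counts per gene and spot, without normalization, which are whole numbers. Bone spots were the barcodes of the study's bone regions, and distances came from array positions. Spots needed at least 500 UMIs and 250 genes. Summed counts were divided by summed size factors from scran 1.30.0 (R 4.3.3) over the spots kept of both sections, as the study normalized with scran. The study tested spots with a likelihood ratio, which was left out here since neighbouring spots are no replicates. Exact Poisson, binomial, and conditional binomial 95% intervals came from scipy 1.17.1 (Python 3.11.15, pandas 2.3.3, numpy 2.4.6). Those of levels and ratios cover counting error only, and those of shares treat spots as independent. Only the intervals of log2 ratios were checked on simulated counts. These were drawn from the Poisson model that the intervals assume, so the check does not cover clustering of the real counts. Intervals for differences of log2 ratios are approximate. A sum of 0 was replaced by 3 UMIs for a bound, and no ratio was taken where both sections had at most 3. Figures were drawn with matplotlib 3.10.9.

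Members and gene lists were chosen with earlier results of these data known. Named genes are the family, the 3 highest and 3 lowest bone ratios of each pathway list among members with at least 30 UMIs, and the 5 genes most like *Ccn2*, *Ccn1*, and *Ccn3*, except where the text says otherwise. Other settings tried were TMM factors from edgeR 4.0.16, totals of all genes, of all but the 20 most abundant or of all but the muscle genes, scran over bone alone, equal weight per spot, no spot filter, a muscle share below 5%, each block or the top spot left out, and other rim widths, gene limits, thinning, and class limits. Section images and strain regions were not used here. One marker gene is not reported here and was left out of its list's sum.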

Additional observations from a re-analysis of the deposited data

Results flagged for a closer look

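*Ccn3* moved in opposite directions between areas of the same sections: its log2 ratio of Loaded over Control was -1.61 in bone and -0.84 in the rim, and 0.94 in the remaining spots, each with an interval on its own side of 0. Inside the rim the direction differed too, at 1.11 on the thick side and -2.12 on the thin side. With 1 section per group the difference between areas was not tested against the variation between mice. The share of the muscle list, 32.5% in Control and 20.9% in Loaded among the remaining spots, differed beside it, and its part in the result was not tested.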

How the results depend on the processing

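*Ccn2* was lower in Loaded in all 3 areas under each alternative run, at log2 ratios of -4.79 to -2.70 in bone, -4.03 to -2.02 in the rim, and -1.63 to -0.60 in the remaining spots. Where the muscle list took under 5% of a spot's UMIs, the ratios were -4.79, -4.03, and -1.20, and the differences from the remaining spots -3.58 (bone) and -2.83 (rim). Against the fibrous list, a divisor added later, they were -2.70, -2.02, and -1.29, with differences of -1.41 and -0.73. In the remaining spots the ratio was -0.60 with library totals, -1.63 with equal weight per spot (differences -2.04 and -1.07), -1.17 with a rim of 150 μm, and -0.71 without spots beyond 3000 μm. With a rim of 400 μm the rim ratio was -2.13 and its difference from the remaining spots -1.09.

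With 1 block left out, *Ccn2* lay between -4.04 and -2.72 in bone, -2.99 and -1.99 in the rim, and -1.42 and -0.40 in the remaining spots. Bone differed from the rim by -1.20 to -0.60 and from the remaining spots by -3.23 to -1.83, and the rim from the remaining spots by -2.22 to -1.09. The right block of the thin side of Control gave -2.72 in bone and -1.99 in the rim, and the right block of its thick side gave -0.40 in the remaining spots.

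Directions changed for *Ccn1* in bone against the fibrous list (0.01), *Ccn3* in remaining spots with a muscle share below 5% (-1.55), *Ccn5* in remaining spots with equal weight per spot (-0.01), and *Ccn2* in muscle-rich rim spots at a limit of 20% (0.02). Ratios near 0 also took either sign: *Ccn5* ran from -1.07 (muscle share below 5%) to 0.83 (fibrous list) in bone and from -1.04 to 0.44 in the rim, and *Ccn4* in the remaining spots from -0.90 (equal weight per spot) to 0.29 (library totals). The cause was not tested. *Ccn4* in bone stayed between 2.37 and 4.92.

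Genes at least 2-fold lower or higher numbered 388 and 590 in bone, 395 and 419 in the rim, and 542 and 440 in the remaining spots when 30 UMIs were required. With 1 UMI required they numbered 2216 and 3867 in bone and 2472 and 2155 in the rim, and 2179 were higher in the remaining spots. Library totals gave 353 lower and 2705 higher there, and moved the median of all genes there to 0.42. No paired analysis was possible because each group holds 1 section. Depth limits *Ccn4*, which had 3 to 38 UMIs in any area, and single blocks of 15 to 21 spots.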
